A study of Mus musculus with 2 samples.

Results

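Mural cells of embryonic mouse cerebellum were chosen by their counts in single-cell transcriptomes, as the barcodes in which the pericyte genes Abcc9, Kcnj8 and Rgs5 together had at least 3 raw UMIs (unique molecular identifiers, each marking 1 captured transcript). Barcodes also had to hold fewer than 2 UMIs of the endothelial gene Cldn5 and fewer than 30 UMIs of the fibroblast genes Col1a1 and Col3a1 together. The cell filter asked for at least 1000 UMIs, 500 or more detected genes and no more than 10% mitochondrial UMIs, and 926 of the 33294 cells that passed it met this rule. They were 488 of 16482 cells in the mutant library and 438 of 16812 in the control library. Since the cells were selected on these gene counts, the levels of Abcc9, Kcnj8, Rgs5, Cldn5, Col1a1 and Col3a1 in them are given as a description only.

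The mutant embryos carried Blbp-cre together with Ctnnb1(ex3)fl/wt and with Smarca4fl/fl, and the controls were cre-negative, with no further genotype in the labels. Both were at E16.5, and the mutant cerebella are described as carrying lesions. Blbp-cre drives recombination in radial glia and other neural progenitors. Deletion of exon 3 makes beta-catenin, the transducer of canonical Wnt signalling, resistant to degradation, and the protein made from Smarca4 is the motor of BAF chromatin remodelling complexes. A library was a pool of 3 samples, and each genotype had 1 library, so no difference could be tested against replicates. No p-value is given, genes are counted by the size of their difference alone, and every interval is an exact 95% interval that covers counting error only.

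Pericytes and vascular smooth muscle cells are the mural cells of blood vessels: pericytes lie in the basement membrane of capillaries, and smooth muscle cells wrap arterioles and arteries with contractile filaments. Endothelial PDGF-BB recruits them through the receptor PDGFRB, and Notch signalling from endothelium to mural NOTCH3 and TGF-beta signalling act in their maturation. In the brain, pericytes take part in forming the blood-brain barrier. Mural cells of the brain arise from mesoderm and neural crest. Whether Blbp-cre recombined in any mural cell was not measured.

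The libraries were of similar depth, with 220565819 UMIs over 21596 barcodes in the mutant and 225512196 UMIs over 21457 barcodes in the control library. Mural cells had a median of 6097 UMIs and 2537.5 genes in the mutant and of 5536.5 UMIs and 2413.5 genes in the control library. They summed to 4329700 UMIs in the mutant and 4035141 UMIs in the control library. At least 1 Xist UMI was found in 23.6% of mutant and 53.4% of control mural cells, and a UMI of 4 Y-linked genes in 59.6% of mutant and 44.7% of control mural cells, so female and male cells differed in their mix between the mural cells of the libraries. Over all kept cells the difference was smaller, with Xist in 37.1% of mutant and 44.2% of control cells and a Y-linked UMI in 55.6% of mutant and 52.8% of control cells. The part of this mix in the results below was not tested. The libraries shared 123 barcode sequences, and 5 mural barcodes occurred in the other library, none of them as a mural cell there.

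The identity of the cells was checked with 10 pericyte markers that the rule did not use. At least 3 of these 10 were detected in 433 mutant (88.7%) and 405 control mural cells (92.5%), against 1.74% of the other mutant and 2.54% of the other control cells. Vtn, the pericyte-made vitronectin that restrains transcytosis in brain endothelium, stood at 1228 CPM (counts per 1000000, the gene's share of all UMIs summed over the cells) in mutant and 1290 CPM in control mural cells, against 24.5 and 40.8 CPM in all other cells. Ndufa4l2, a mitochondrial complex I-related protein abundant in brain pericytes, stood at 779 CPM in mutant and 778 CPM in control mural cells. Higd1b, a pericyte-enriched hypoxia-inducible domain protein, stood at 746 and 709 CPM. Pdgfrb, the receptor that recruits mural cells, had 280 CPM in mutant and 318 CPM in control mural cells, and Cspg4, the NG2 proteoglycan, 131 and 129 CPM. These 5 of the 10 markers lay close together in both libraries, while Atp13a5 and Notch3 of the same list were lower in the mutant, as described below. The markers matched the label of mural cells, and some of the cells also carried neural RNA, described below.

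**Figure D1:**
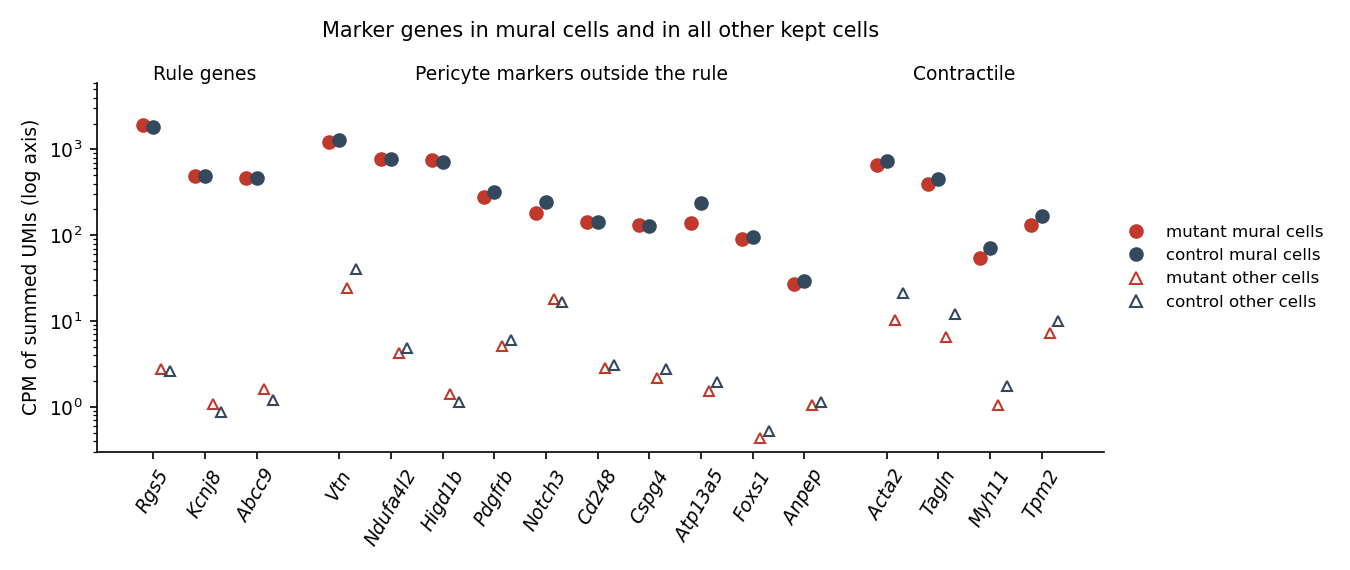
CPM of summed UMIs on a log axis for the 3 genes of the rule, 10 pericyte markers outside it and 4 contractile genes, with filled circles for mural cells and open triangles for all other kept cells, red for the mutant and dark grey for the control library. Of the markers outside the rule, Atp13a5 had the widest gap between the libraries, with 138 CPM in mutant and 236 CPM in control mural cells.

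Near the threshold the evidence for mural identity was weaker. Among cells with 10 or more UMIs of the 3 rule genes, 334 of 337 mutant and 308 of 310 control cells had at least 3 of the 10 markers. With exactly 3 rule UMIs, just inside the rule, 16 of 38 mutant and 17 of 29 control cells had them. With 2 rule UMIs, just outside, 9 of 72 mutant and 15 of 71 control cells had them. The genes most specific to mural cells by their CPM against all other cells were Rgs5, Higd1b, Kcnj8, Abcc9, Car4, Ndufa4l2, Mmp9, Itga1, Foxs1, Morrbid, Gja4 and Cox4i2. Rgs5, which accelerates the shut-off of G protein signals downstream of vasoactive receptors, had 1915 CPM in mutant and 1814 CPM in control mural cells, against 2.76 and 2.63 CPM in all other cells. Kcnj8, the pore of the vascular ATP-sensitive potassium channel, had 496 and 484 CPM, and Abcc9, its sulphonylurea receptor subunit, 464 and 459 CPM. Car4, a membrane carbonic anhydrase, had 238 and 228 CPM, and Gja4, the gap junction protein connexin 37, 192 and 181 CPM.

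The first question was whether mural cells were as frequent in the mutant as in the control cerebellum. They made up 2.96% of the mutant (2.71 to 3.23) and 2.61% of the control library (2.37 to 2.86), or 1.14 times as many in the mutant (0.997 to 1.30). With the mitochondrial limit lowered to 5% the ratio was 1.22 (1.06 to 1.41), an interval that no longer held 1. Endothelial cells, taken as barcodes with at least 3 Cldn5 UMIs and fewer than 3 UMIs of the rule genes, were 236 of the mutant (1.43%) and 202 of the control cells (1.20%). Set against them, there were 2.07 mural cells per endothelial cell in the mutant (1.77 to 2.43) and 2.17 in the control library (1.83 to 2.57), a ratio of 0.954 (0.754 to 1.21). Fibroblasts, with at least 30 UMIs of Col1a1 and Col3a1 together and below the limits for the rule genes and Cldn5, were 187 mutant (1.13%) and 273 control cells (1.62%), a ratio of 0.699 (0.577 to 0.845). The ratio of mural cells to endothelial cells thus lay within counting error of 1. Both are shares of what survived papain digestion and sorting, so vessel coverage in the tissue was not measured.

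**Figure D2:**
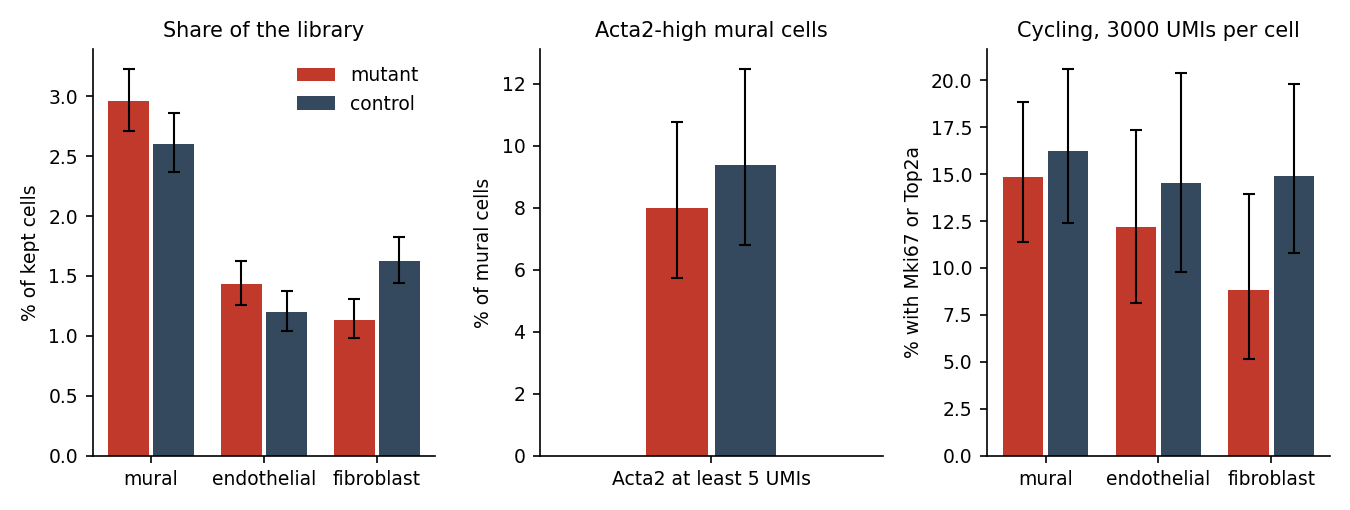
Percentages in the mutant (red) and control library (dark grey) with exact 95% intervals as error bars: mural cells, endothelial cells and fibroblasts among kept cells, Acta2-high cells among mural cells, and cells that, thinned to 3000 UMIs, held Mki67 or Top2a. The mutant and control intervals overlap in every panel except for the share of fibroblasts, at 1.13% in the mutant and 1.62% in the control library.

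Clustering the 926 mural cells gave 7 clusters, each with at least 21 cells of each library. Clusters 0 and 1, with 251 and 213 cells, carried the highest summed levels of the 10 pericyte markers, at 8752 and 8793 CPM. Cluster 0 was led by Atp13a5, a P5-type transport ATPase known as a brain pericyte marker, with Mylk4, Pde8b and Pdzd2. Cluster 1 was led by the chemokine gene Ccl2, Mmp9, a secreted matrix gelatinase, and Cxcl1, and it held 193340 CPM of erythroid genes, against 25775 CPM in cluster 0. Cluster 3, with 115 cells, was led by Tagln, Actg2, Myh11 and Acta2, genes of the smooth muscle contractile apparatus, and its contractile list summed to 18755 CPM. Cluster 4, with 65 cells, was led by Moxd1, Ifi27l2a and Colec11 and also by Col13a1 and Tcf21. It held only 1399 CPM of the pericyte markers and 3096 CPM of fibroblast markers, so it stays unnamed. Cluster 6, with 45 cells, was led by genes of mitosis such as Cenpe, Plk1 and Bub1. The genes that define a cluster are given as its description, and cluster sizes are not compared between genotypes.

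Clusters 2 and 5, with 176 and 61 cells, carried RNA of neural cells beside the mural genes. Cluster 2 was led by the neuronal genes Tafa1 and Myt1l and by Fstl4 and Adamts19, its neuron markers summed to 2827 CPM, and it held a median of 14124.5 UMIs per cell. Cluster 5 was led by Htr2c, Fabp7, Ttr and Ptprz1, genes of choroid plexus and of neural progenitors, and its progenitor markers summed to 12475 CPM. A doublet caller marked 61.9% of cluster 2 and 44.3% of cluster 5, and no more than 4.44% of any other cluster. Over all mural cells it marked 72 mutant (14.8%) and 69 control cells (15.8%), against 5.45% of kept mutant and 6.06% of kept control cells. The 237 cells of these clusters were kept under the rule. Counts of genes and of list members are also given for the remaining 689 mural cells, 365 mutant and 324 control, a subset chosen after the data were seen.

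**Figure D3:**
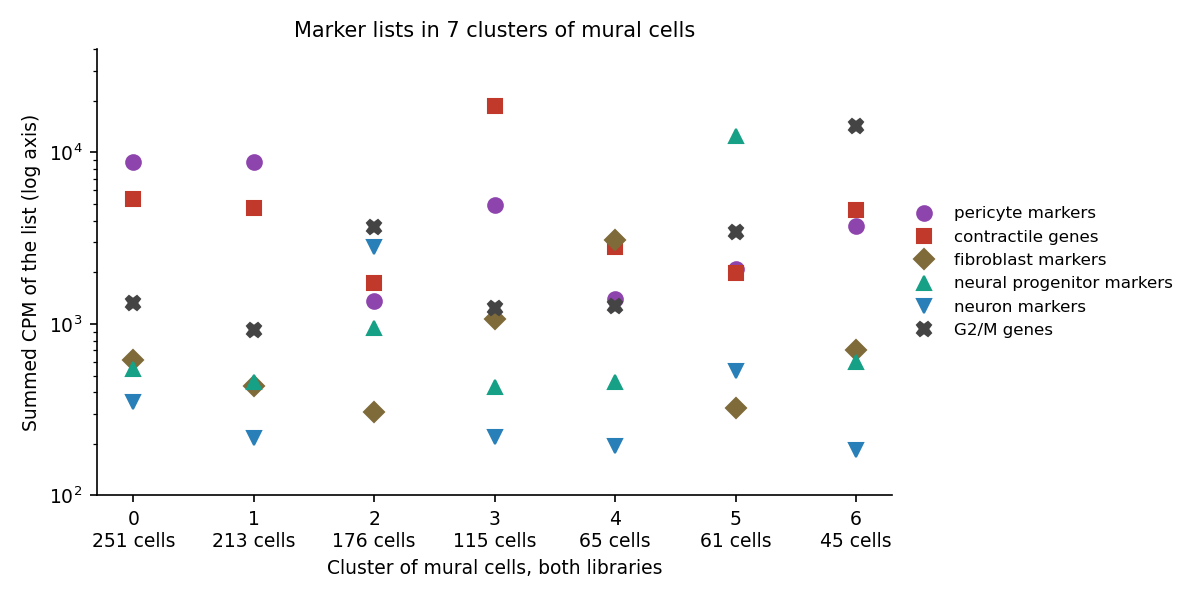
Summed CPM of 6 gene lists on a log axis in each of the 7 clusters of mural cells, both libraries together, with the number of cells under each cluster. Contractile genes reach 18755 CPM in cluster 3, neural progenitor markers 12475 CPM in cluster 5, and neuron markers 2827 CPM in cluster 2.

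The second question was how the transcriptome of mural cells differed between the genotypes. Over all mural cells the genes with the widest differences included transcripts of neural cells, and the number of genes past 1.5-fold was smaller without clusters 2 and 5. Of 7594 genes that reached 20 CPM in a library, 559 were at least 1.5-fold higher in the mutant (7.36% of those measured) and 218 at least 1.5-fold lower (2.87%), so 71.9% of these genes were higher. In the 689 remaining cells the numbers were 189 of 7000 higher (2.70%) and 231 lower (3.30%), and 45.0% of those past 1.5-fold were higher. With each cell given equal weight 42.8% were higher, with barcodes above 30000 UMIs left out 52.2%, and with median-of-ratios scaling 60.8%. The median log2 ratio over all measured genes was 0.07 in all mural cells and −0.03 in the 689. With called doublets left out it was 0.11, and 76.4% of the genes past 1.5-fold were higher. All other kept cells had 578 of 7294 genes higher (7.92%), while 429 were lower (5.88%). The shares past 1.5-fold were 4.99% higher with 3.52% lower for endothelial cells, and 4.39% higher with 4.65% lower for fibroblasts. The counts of list genes given below are to be read beside the shares of all genes in the same cells.

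Among genes at 50 CPM or more, the largest ratio was that of Fstl4, a follistatin-like gene abundant in the mutant lesion cells, with 2107 UMIs (487 CPM) in mutant and 8 UMIs (1.98 CPM) in control mural cells. All other mutant cells held it at 544 CPM and all other control cells at 5.60 CPM. Wif1, a secreted Wnt inhibitor, had 205 CPM in mutant and 1.49 CPM in control mural cells, against 301 and 2.44 CPM in other cells. Adamts19, Grm8, Asic2, Sostdc1, Tmem132c, Sorcs3, Lingo2, Pcdh15, Pycr1 and Spock3 completed the 12 highest. The 12 lowest included Ppp2r2c (10.2 CPM in mutant and 64.4 CPM in control mural cells), Pax6 (34.2 and 112 CPM) and Neurod1 (51.5 and 164 CPM), the last 2 being transcription factors of the granule neuron lineage. The other 9 were Btbd11, Aldoc, Mfap4, Insm1, Cadps2, Shf, Ppp1r14c, Pde1c and Plppr1. In the 689 cells Fstl4 was down to 36 mutant UMIs and 0 control UMIs, and Neurod1 to 6.18 CPM in mutant against 23.8 CPM in control cells. The surrounding cells differed in the same direction: the share of other cells with an Fstl4 UMI was 42.2% in the mutant and 3.76% in the control library.

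Genes at least 2 times higher in mural cells than in all other cells, in both libraries, were also looked at apart. Of 784 such genes measured, 23 were higher (2.93%) and 13 lower (1.66%) past 1.5-fold in the mutant, and of 929 measured in the 689 cells 30 were higher (3.23%) and 49 lower (5.27%). Mmp9 and Atp13a5 had the lowest ratios of the class at 50 CPM or more. Mmp9 (GRCm38 chromosome 2) had 144 CPM in mutant (623 UMIs) and 256 CPM in control mural cells (1031 UMIs), a log2 ratio of −0.82. In the 689 cells it had 240 CPM in mutant against 447 CPM in control cells, a ratio of 0.537 (0.480 to 0.601). Mmp9 was near 0 elsewhere, at 0.874 CPM in other mutant and 0.851 CPM in other control cells. After thinning to 3000 UMIs a cell, 34.5% of mutant and 43.9% of control cells among the 689 held an Mmp9 UMI, against 0.469% of mutant and 0.538% of control endothelial cells, and the mutant and control intervals of the mural shares overlapped.

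Atp13a5 (ENSMUSG00000048939, chromosome 16, 29231851 to 29378732, minus strand) had 138 CPM in mutant (596 UMIs) and 236 CPM in control mural cells (954 UMIs), a log2 ratio of −0.78. In the 689 cells it had 217 CPM in mutant against 380 CPM in control cells, a ratio of 0.572 (0.507 to 0.645), and was detected in 35.6% of mutant and 53.4% of control cells. With each of these cells thinned to 3000 UMIs, 29.0% of mutant (23.4 to 35.0) and 44.3% of control cells (37.7 to 51.2) held an Atp13a5 UMI. In endothelial cells thinned in the same way, the shares were 0% of 213 mutant cells, where the exact interval reaches 1.72%, and 1.08% of 186 control cells. Over the alternative settings the log2 ratio lay between −0.91 and −0.62.

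Fam162b (44.8 CPM in mutant and 71.6 CPM in control mural cells), Adamts16, a secreted metalloproteinase (45.0 and 71.6 CPM), Gatm, the first enzyme of creatine synthesis (63.1 and 99.6 CPM), Rflna (40.2 and 62.9 CPM) and Coro2b (49.2 and 76.8 CPM) were also lower past 1.5-fold. Each of them kept that size in the 689 cells, with log2 ratios from −0.76 to −0.65. Cobll1 had 143 CPM in mutant and 200 CPM in control mural cells, and Il34, a ligand of the CSF1 receptor of microglia, 72.5 and 99.9 CPM, both short of 1.5-fold. Stard9, Ddr2 and Il13ra1 completed the 12 lowest of this class.

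Of the 12 highest ratios of this class, that of Mgp rested on the most UMIs. Mgp, matrix Gla protein, an inhibitor of vascular calcification and of BMP signals (chromosome 6), had 522 CPM in mutant (2258 UMIs) and 289 CPM in control mural cells (1166 UMIs), a log2 ratio of 0.85. In the 689 cells it had 861 CPM in mutant against 518 CPM in control cells, a ratio of 1.66 (1.54 to 1.80). After thinning, 43.3% of mutant (37.0 to 49.6) and 28.1% of control cells (22.2 to 34.5) held an Mgp UMI. Mgp was also higher in the mutant outside mural cells, with 133 CPM in mutant and 5.75 CPM in control endothelial cells, 217 and 86.5 CPM in fibroblasts, and 27.1 and 5.44 CPM in all other cells. After thinning, 3.29% of mutant and 0.538% of control endothelial cells held an Mgp UMI. The part of free RNA in the mural difference was not tested.

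Chp2, a calcineurin-like calcium-binding protein, had 65.8 CPM in mutant and 39.4 CPM in control mural cells, against 0.192 and 0.111 CPM in all other cells. Aspn, the small matrix proteoglycan asporin, had 60.1 and 36.2 CPM. Among the 689 cells their ratios were 1.69 (1.35 to 2.12) for Chp2 and 1.60 (1.27 to 2.04) for Aspn. Tcf21, a transcription factor of fibroblast and coronary smooth muscle progenitors, had 52.0 CPM in mutant and 17.8 CPM in control mural cells, but 5 cells held 38.7% of its mutant and 56.9% of its control UMIs. Tcf21 lay mainly in cluster 4, with 533 CPM in mutant against 338 CPM in control cells of that cluster. Itga8 likewise had 501 CPM in mutant against 362 CPM in control cells of cluster 4. Pde7b, Twist1, Dact1 and Acap2 passed 1.5-fold in all mural cells and not in the 689, while Calcrl, Rerg and Txnip completed the 12 highest of this class.

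Within single clusters the directions of Mmp9, Atp13a5, Notch3 and Mgp were shared by most clusters. Notch3 was lower in all 7, with ratios from 0.421 to 0.947, and the intervals of clusters 2 and 5 reached past 1. In cluster 0, Atp13a5 stood at 629.6 CPM in mutant against 1027 CPM in control cells, a ratio of 0.613 (0.531 to 0.708). In cluster 1 it stood at 178 and 324 CPM, and in cluster 3 at 20.8 and 84.4 CPM. Cluster 5 was the exception, with 133 CPM in mutant against 116 CPM in control cells and a ratio of 1.14 (0.797 to 1.64), and in cluster 4 no UMI was found in either library. Mmp9 in cluster 1 stood at 407 CPM in mutant against 838 CPM in control cells, a ratio of 0.486 (0.415 to 0.567). Mgp in cluster 3 stood at 1660 CPM in mutant against 564 CPM in control cells, a ratio of 2.94 (2.56 to 3.38), and its ratios were 2.84 in cluster 0 and 2.70 in cluster 1. In cluster 4 Mgp went the other way, with 2020 CPM in mutant against 3053 CPM in control cells, a ratio of 0.661 (0.586 to 0.746), and in cluster 5 its ratio was 0.882. Because the clusters were made from the same counts, these values are a description.

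**Figure D4:**
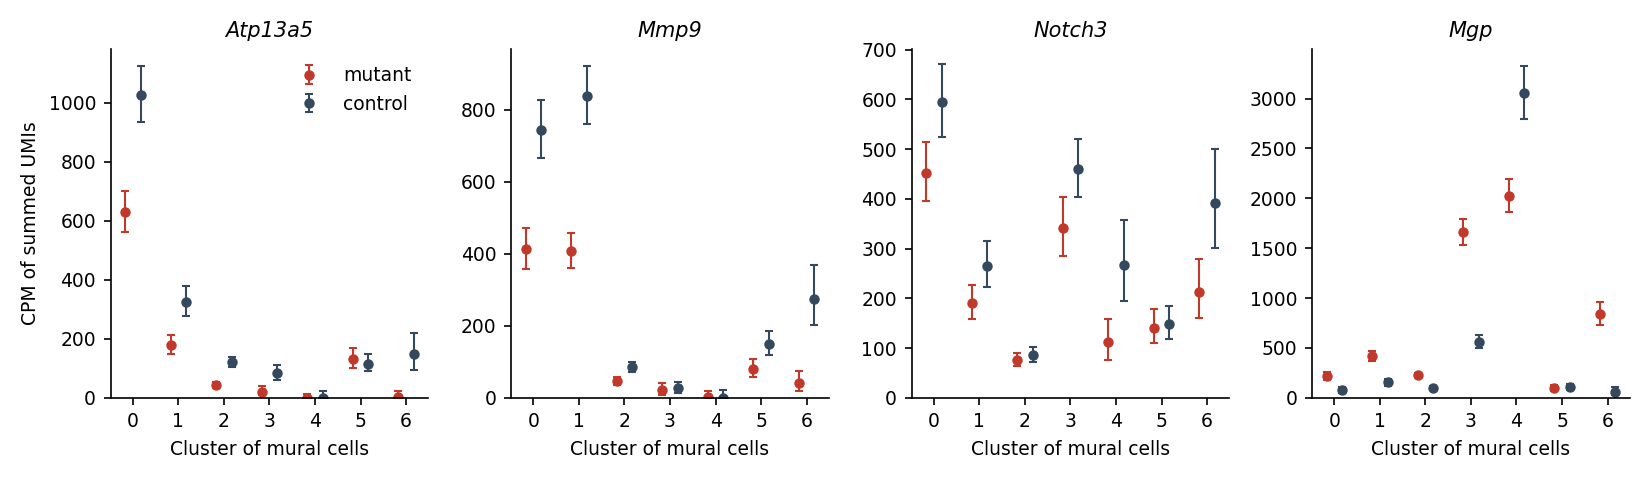
CPM of summed UMIs with exact 95% Poisson intervals for Atp13a5, Mmp9, Notch3 and Mgp in the 7 clusters of mural cells, mutant in red left of control in dark grey. Mmp9 is at 407 CPM in mutant against 838 CPM in control cells of cluster 1, and Mgp at 1660 CPM in mutant against 564 CPM in control cells of cluster 3, with the order of Mgp turned round in cluster 4.

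Of the 10 pericyte markers outside the rule, all measured, 1 was lower past 1.5-fold and 0 higher, and the median log2 ratio was −0.06. The lower one was Atp13a5 (10% of the list, against 2.87% of all genes). Outside clusters 2 and 5 there were 2 lower (20%, against 3.30% of all genes), with a median of −0.15. Notch3 also passed there, at 275 CPM in mutant against 415 CPM in control cells, a ratio of 0.663 (0.594 to 0.740). Over all mural cells Notch3, the Notch receptor of mural cells, stood at 180 CPM in mutant against 242 CPM in control cells, a log2 ratio of −0.42, short of that size. After thinning, 56.3% of mutant and 63.8% of control cells among the 689 held a Notch3 UMI, with overlapping intervals. Of the 14 Notch pathway genes 10 were measured, of which 0 were higher and 1 lower (median −0.08), and in the 689 cells 1 of 11 was higher and 1 lower (−0.14). The higher one was Notch2, a further Notch receptor, at 46.1 CPM in mutant against 29.8 CPM in control cells, and the lower one Notch3. Hes1, Heyl, Hey2 and Nrarp, targets of Notch signalling, did not pass 1.5-fold in all mural cells or in the 689.

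Of 11 PDGF signalling genes 7 were measured, and 0 were higher and 1 lower (median 0.10), and in the 689 cells none of 6 passed (−0.08). Of 24 TGF-beta and BMP genes 19 were measured, with 5 higher (26.3%, against 7.36% of all genes) and 0 lower (median 0.29), and in the 689 cells 3 of 20 were higher (15%, against 2.70%) and 0 lower (median 0.06). Those 3 were Id1, at 161 CPM in mutant against 97.3 CPM in control cells, Id2, at 53.2 and 26.0 CPM, and Smad6, at 26.1 and 10.5 CPM. Id1 and Id2 encode inhibitors of basic helix-loop-helix factors that BMP signals induce, and Smad6 an inhibitor of that pathway. Of 24 transcription factors of mural cells 18 were measured, 1 higher and 0 lower (median 0.05), and in the 689 cells 0 of 18 were higher and 1 lower (−0.12). The lower one was Ebf2, at 9.98 CPM in mutant against 23.2 CPM in control cells. Ebf1, a factor required for pericyte commitment, stood at 1039 CPM in mutant and 1413 CPM in control mural cells (log2 ratio −0.44), and Tbx18 at 48.0 and 65.4 CPM (−0.44), while Foxf2, Foxc1 and Foxs1 differed less. Ebf1 was also lower in the other cells, with 166 CPM in mutant against 385 CPM in control cells.

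Matrix genes were counted in a basement membrane and an interstitial list. Of 17 basement membrane genes 16 were measured and none passed 1.5-fold (median 0.00), including Col4a1, the collagen IV chain, at 1521 CPM in mutant and 1483 CPM in control mural cells. In the 689 cells 1 of 16 was lower (median −0.10), Hspg2, the proteoglycan perlecan, at 26.1 CPM in mutant against 39.8 CPM in control cells. Of 17 interstitial matrix genes, which include Col1a1 and Col3a1 of the rule, 13 were measured, 2 higher (15.4%, against 7.36% of all genes) and 0 lower (median 0.24). In the 689 cells 4 of 16 were higher (25%, against 2.70%) and 0 lower (median 0.29). Those 4 were Mgp, Col1a1, Dcn and Fbn1, of which Col1a1 is a gene of the rule and is given as a description only. It stood at 105 CPM in mutant against 37.6 CPM in control cells of the 689, and Dcn, the proteoglycan decorin, at 69.4 and 38.1 CPM. The fibroblast markers differed in the same direction: the 10 genes of that list, which include Col1a1 and Dcn, summed to 1045 CPM in mutant against 870 CPM in control cells of the 689, and the part of cluster 4 and of admixed fibroblast RNA in them was not tested. With the collagen limit lowered to below 10 UMIs, the log2 ratio of Col1a1 over all mural cells was −0.12, against 0.93 with the limit of 30. The interstitial list was also higher in endothelial cells, with 4 of 4 measured genes past 1.5-fold, against 4.99% of all genes there. Its 17 genes summed there to 335 CPM in mutant against 106 CPM in control cells. In fibroblasts 2 of 17 were higher and 1 lower, against 4.39% and 4.65% of all genes.

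Vessel tone and transport were counted next. Of 19 vasoactive receptors and effectors 14 were measured, with 1 higher (7.14%, against 7.36% of all genes) and 0 lower (median 0.07), and in the 689 cells none of 14 passed (−0.04). The endothelin receptor gene Ednra stood at 236 CPM in mutant and 250 CPM in control mural cells, and Prkg1, the cGMP-dependent kinase of relaxation, at 1101 and 1275 CPM. Of 15 ion channel and pump genes 12 were measured, with 0 higher and 1 lower (median 0.03), and in the 689 cells none of 10 passed (−0.06). The ion channel list holds Abcc9 and Kcnj8 and the vasoactive list Rgs5. As genes of the rule, their part in these counts and medians is a description only. Of 16 pericyte transporters 10 were measured, with 1 higher (10%, against 7.36%), 1 lower (Atp13a5; 10%, against 2.87%) and a median of −0.17. In the 689 cells 0 of 10 transporters were higher and Atp13a5 alone was lower, with a median of −0.22, and the 16 genes summed to 1132 CPM in mutant against 1420 CPM in control cells. Of 17 secreted ligands 11 were measured, with 1 higher and 1 lower (median −0.06), and in the 689 cells likewise 1 of 11 each way (0.01). The lower one was in both cases Angpt1, the TIE2 ligand that mural cells make for endothelium, at 40.9 CPM in mutant and 65.7 CPM in control mural cells. Angpt1 was also lower in the other cells, at 19.7 CPM in mutant against 49.8 CPM in control cells.

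The third question was whether the smooth muscle part of the population differed. Acta2, smooth muscle actin, was at least 5 UMIs in 39 of 488 mutant (7.99%, 5.74 to 10.8) and 41 of 438 control mural cells (9.36%, 6.80 to 12.5), a ratio of 0.854 (0.536 to 1.36). Among the 689 cells these were 34 mutant (9.32%) and 30 control cells (9.26%). Acta2 was concentrated in few cells: it was detected in 14.3% of mutant and 15.1% of control mural cells. Its level over all mural cells was 655 CPM in mutant against 739 CPM in control cells.

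The Acta2-high cells of the 689 carried the contractile genes together in both libraries. Acta2 itself stood at 7386 CPM in mutant and 8567 CPM in control Acta2-high cells, Tagln, the actin-binding protein transgelin, at 4301 and 5542 CPM, and Myh11, the smooth muscle myosin heavy chain, at 593 and 740 CPM. In cells with no Acta2 UMI, Tagln stood at 13.3 CPM in mutant against 17.8 CPM in control cells. Atp13a5 showed the reverse order, at 9.89 CPM in mutant and 38.6 CPM in control Acta2-high cells and at 267 and 458 CPM in cells with no Acta2 UMI. Rgs5 was nearly the same in both kinds of cell, at 3154 CPM in mutant and 2794 CPM in control Acta2-high cells and at 3148 and 3180 CPM in cells with no Acta2 UMI. Of the 18 contractile genes 11 were measured over all mural cells, and 0 were higher and 0 lower past 1.5-fold (median −0.18). Within the 689 cells 1 of 14 was lower, Actg2, at 31.4 CPM in mutant against 56.9 CPM in control cells, of which 5 cells held 65.2% and 64.1% of the UMIs.

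The fourth question was whether mural cells carried the Wnt readout of the lesions. Over all mural cells, 9 of 9 measured Wnt targets of 14 in the list were higher in the mutant (100%, against 7.36% of all genes), with a median log2 ratio of 1.62. For the 689 cells 2 of 8 were higher (25%, against 2.70% of all genes) and 1 lower (12.5%, against 3.30%), with a median of −0.14, so members went both ways there. Axin2, the negative-feedback target used as a general Wnt reporter, stood at 109 CPM in mutant and 55.8 CPM in control mural cells. Among the 689 cells it stood at 66.5 CPM in mutant against 93.4 CPM in control cells, a ratio of 0.712 (0.565 to 0.896). Lef1, a transcription factor of the pathway and its target, had 129 and 24.5 CPM over all mural cells and 22.3 and 26.0 CPM in the 689. Nkd1, an inhibitor of Dishevelled, remained higher in the 689 cells, at 75.1 CPM in mutant against 39.8 CPM in control cells, a ratio of 1.89 (1.42 to 2.53), and its ratios in clusters 0, 1 and 3 were 2.33 (1.37 to 4.11), 1.90 (1.10 to 3.43) and 1.81 (1.02 to 3.26). Wif1 had 48 mutant and 1 control UMIs there, a ratio of 41.3 (7.06 to 1663). Both were abundant in the other mutant cells, with Nkd1 at 460 CPM and Wif1 at 301 CPM, and the part of free RNA in their mural levels was not tested. After thinning, 5.16% of these mutant mural cells and 11.3% of mutant endothelial cells held a Wif1 UMI. An Nkd1 UMI was held by 16.3% of mutant (11.9 to 21.4) and 11.3% of control cells (7.46 to 16.2) among the 689, with overlapping intervals. In endothelial cells the thinned shares with Nkd1 were 31.0% in the mutant and 30.1% in the control library.

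A list of 10 transcripts abundant in lesion cells, drawn from earlier results of these data and sharing Wif1, Lef1, Notum and Tnfrsf19 with the Wnt targets, was counted in the same way. Over all mural cells 10 of 10 were higher (100%, against 7.36% of all genes), with a median of 3.70. In the 689 cells 1 of 5 was higher (20%, against 2.70%) and 2 lower (40%, against 3.30%), with a median of −0.51. Wif1 was the higher one. Rgs6 and Tnfrsf19, the lower ones, stood at 125 and 60.8 CPM in mutant and at 194 and 91.7 CPM in control cells of the 689. Rgs6 and Tnfrsf19 were thus present in control mural cells. Fstl4 and Adamts19 of this list were among the genes that led cluster 2, which the 689 cells leave out. The values of this list and of the Wnt targets in the 689 are therefore a description and not a separate test. The medians of these lists and of the pathway lists, in all mural cells and in the 689, are set side by side in the plot of list medians.

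**Figure D5:**
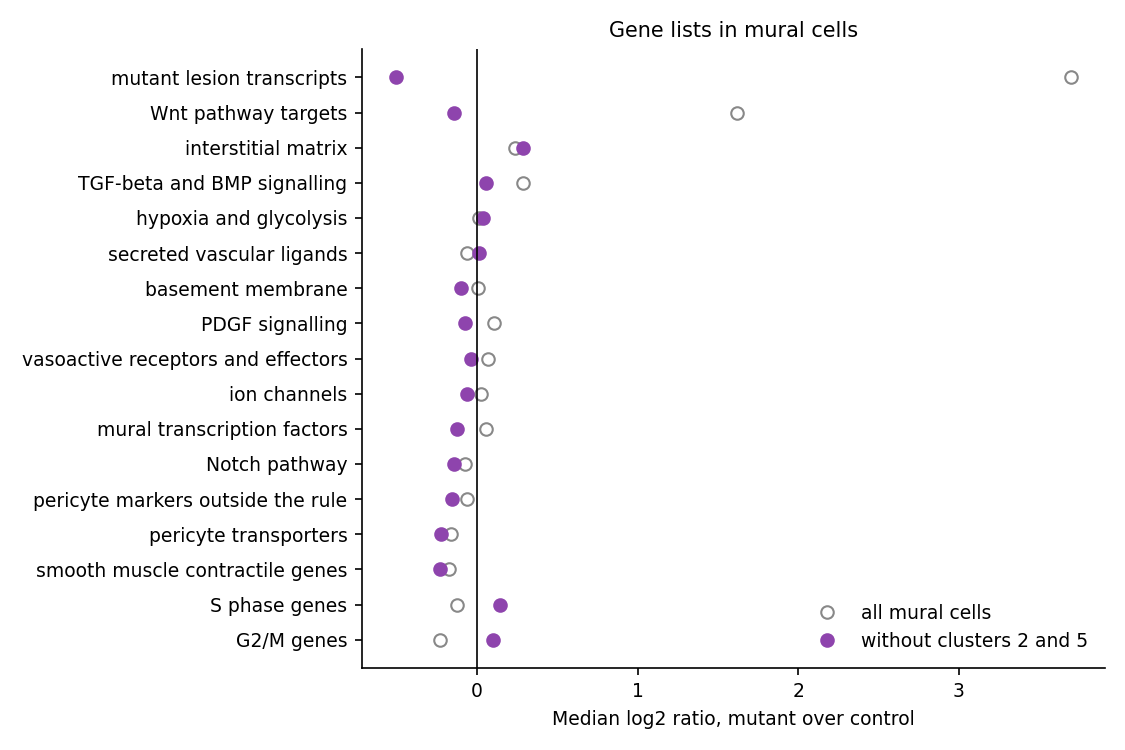
Median log2 ratio, mutant over control, of the measured genes of 17 lists, with open circles for all mural cells and filled circles for the 689 cells outside clusters 2 and 5. The lesion transcripts lie at 3.70 in all mural cells and −0.51 in the 689, the Wnt targets at 1.62 and −0.14, and all other lists between −0.23 and 0.29 in both.

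The targeted genes did not differ past 1.5-fold in the 689 cells. Smarca4 (ENSMUSG00000032187, chromosome 9, 21616169 to 21704230, plus strand) stood at 53.4 CPM in mutant (231 UMIs) and 58.5 CPM in control mural cells (236 UMIs), and at 42.3 and 47.5 CPM in the 689, a ratio of 0.890 (0.654 to 1.21). The gene of beta-catenin, Ctnnb1 (ENSMUSG00000006932, on chromosome 9, 120929216 to 120960507, plus strand) stood at 164 CPM in mutant and 106 CPM in control mural cells, but at 125 and 115.5 CPM in the 689. In cluster 2 alone it stood at 212 CPM in mutant against 87.2 CPM in control cells, a ratio of 2.43. A tag at the 3' end lies outside exon 3 of Ctnnb1, and the floxed part of Smarca4 is not described in the labels, so these levels do not check recombination in any cell. Smarca2, the paralogous BAF ATPase, stood at 109 CPM in mutant and 73.6 CPM in control mural cells, and at 92.6 and 75.2 CPM in the 689. Of 25 BAF subunits 20 were measured in the 689 cells and none passed 1.5-fold (median 0.06).

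The last question was proliferation. With each cell thinned to 3000 UMIs, a UMI of Mki67 or Top2a, genes of cycling cells, was found in 55 of 371 mutant (14.8%, 11.4 to 18.9) and 54 of 333 control mural cells (16.2%, 12.4 to 20.6), a ratio of 0.914 (0.616 to 1.36). Thinning left out 117 mutant and 105 control mural cells of lower depth, and the unthinned shares were 19.1% and 24.0%. Outside clusters 2 and 5 thinned shares of 13.5% in mutant against 11.3% in control cells were found, so the order of the libraries turned. Endothelial cells had 12.2% in the mutant and 14.5% in the control library, at median depths of 10824 and 10255.5 UMIs before thinning. Fibroblasts had 8.84% and 14.9%. Of 52 G2/M genes 37 were measured over all mural cells, with 0 higher and 6 lower (16.2%, against 2.87% of all genes), and a median of −0.23. In the 689 cells 5 of 35 were higher (14.3%, against 2.70%) and 0 lower (median 0.10). Those 5 were Bub1, Tpx2, Ckap2, Hmmr and Kif11, each at 52.7 CPM or less in mutant cells. No direction is given for proliferation in mural cells.

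Of 16 hypoxia and glycolysis genes 9 were measured, with 2 higher (22.2%, against 7.36% of all genes) and 0 lower (median 0.01), and in the 689 cells 1 of 10 was higher (0.04). All 13 immediate early and dissociation genes were measured and none passed 1.5-fold (median 0.24), and in the 689 cells 1 was lower (median 0.14), Atf3, of which 5 cells held 31.4% of the mutant and 56.6% of the control UMIs. In endothelial cells 7 of 13 of these genes were higher in the mutant (median 0.69), against 4.99% of all genes there. In fibroblasts 6 of 12 were higher (median 0.60), against 4.39% of all genes, and 0 were lower in both. Of 9 interferon genes 6 were measured and none passed in all mural cells (median 0.25) or in the 689 (0.05). Markers of other cell types were summed in the 689 cells. The 10 endothelial markers came to 443 CPM in mutant and 475 CPM in control mural cells, against 6073 and 6186 CPM in endothelial cells, with Ly6c1 and Pecam1 at 0 in at least 1 library. Cldn5 is 1 of these markers and was used to choose both kinds of cell, so its part in this contrast was set by the selection. The 10 microglia and macrophage markers summed to 23.3 CPM in mutant against 13.8 CPM in control cells, with Aif1 and Ptprc at 0 in at least 1 library. Over all mural cells their order was reversed, at 20.6 CPM in mutant against 35.7 CPM in control cells. The 8 erythroid genes summed to 97163 CPM in mutant against 82744 CPM in control cells of the 689. Over all mural cells the order was reversed for them too, at 61054 CPM in mutant against 80151 CPM in control cells. In all kept cells other than mural cells they summed to 85386 CPM in mutant against 72157 CPM in control cells.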

How the data were processed

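The 2 libraries were analysed from the raw UMI count matrices that the authors deposited, made with Cell Ranger 7.0.1 on mm10 per the submitters' processing notes. Whether intronic reads were counted is not stated in the labels. GENCODE M21 (GRCm38) held 32235 of the 32285 gene identifiers. UMIs were summed over cells and given as CPM of that sum. Genes that reached 20 CPM in a library were compared as (mutant + 1)/(control + 1) in CPM, on a log2 scale and past 1.5-fold by size alone. Intervals are exact binomial, Poisson or conditional. Doublets were called with Scrublet in scanpy 1.11.5 and kept. Clusters came from Leiden (leidenalg 0.10.2) at resolution 0.5 on 1500 variable genes, 20 components and 15 neighbours, without integration. Cells were thinned to 3000 UMIs each for the share of cycling cells and for shares of cells holding a gene where the text says so. Other shares were not thinned, and for mural and Acta2-high cells thinning was run as an alternative. The calculation of ratios and of their intervals was run on simulated Poisson counts with known folds, which hold counting error only. The cell filter, the rule, doublet calls, clusters and thinning were not tested in this way.

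The members and lists were chosen with earlier results of these data known. Genes named were the 12 largest ratios each way at 50 CPM or more, over all genes and over genes at least 2 times higher in mural than in other cells. These leave out Gm-numbered and Rik gene models and mitochondrial, ribosomal protein, haemoglobin and sex-linked genes. Up to 4 genes per list and the 12 most mural-enriched genes were added, and a gene named outside this rule was chosen after its values were seen. Antisense or overlapping genes were not separated further. Alternatives changed the rule, doublets, scaling, pseudocount and minimum level.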

Additional observations from a re-analysis of the deposited data

Results flagged for a closer look

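Of 2964 genes at 50 CPM or more in both cell types, 6 passed 1.5-fold in opposite directions in the 689 mural cells outside clusters 2 and 5 and in endothelial cells. With 1 library per genotype, none of these differences between cell types was tested. Atf3, an immediate early transcription factor, had a log2 ratio of −0.66 in mural and 1.30 in endothelial cells. In the mural cells 5 cells of each library held 31.4% of its mutant and 56.6% of its control UMIs, and without them 144 mutant and 124 control UMIs remained, so the mural difference rested on those cells. H19, an imprinted long noncoding RNA, had −1.03 in mural cells, with 44.2 CPM in mutant against 91.2 CPM in control cells, against 66.9 and 41.2 CPM in endothelial cells. Id2 had 1.01 in mural cells, with 53.2 CPM in mutant against 26.0 CPM in control cells, against 63.5 and 117 CPM in endothelial cells. After thinning, the intervals of the mutant and control mural shares with Id2 overlapped. Nts, the neuropeptide neurotensin, had −2.41 in mural cells, against 97.6 CPM in mutant and 10.6 CPM in control endothelial cells. After thinning, only 3 mutant (1.41%) and 2 control endothelial cells (1.08%) held an Nts UMI, so few endothelial cells of either library carried it. In the mural cells 5 cells held 57.9% of its mutant and 44.0% of its control UMIs, and without them 16 mutant and 102 control UMIs remained. Rgs6, a regulator of G protein signalling, had −0.63 in mural cells, against 145 CPM in mutant and 6.20 CPM in control endothelial cells. Ttr, the choroid plexus transcript transthyretin, had 2.67 in mural cells, where 5 cells held 57.4% of the mutant UMIs. Without the 5 top cells of each library 1035 mutant and 300 control UMIs of Ttr remained. In endothelial cells Ttr had 277 CPM in mutant against 2851 CPM in control cells.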

How the results depend on the processing

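No paired analysis was possible because each genotype had 1 library. The ratios of the share of mural cells, of mural cells per endothelial cell and of Acta2-high and cycling cells moved by less than counting error under every alternative run on them, but with at most 5% mitochondrial UMIs the ratio of the share of mural cells, 1.22 (1.06 to 1.41), had an interval that excluded 1. Against 559 genes higher and 218 lower, weighting cells equally gave 326 and 435. Leaving out barcodes above 30000 UMIs gave 347 higher, and leaving out clusters 2 and 5 gave 189 higher; both alternatives were chosen after seeing the data. A minimum of 10 CPM gave 363 lower, one of 50 CPM gave 279 higher and 101 lower, and no minimum gave 2229 and 1288. The log2 ratio of Col1a1 turned to −0.12 with collagen below 10 UMIs. Without clusters 2 and 5 the medians of the lesion transcripts and the Wnt targets turned to −0.51 and −0.14, and the log2 ratios of Mfap4, Shf, Lef1 and Cdca3 to 0.50, 0.067, −0.21 and 0.22. The cause of these turns was not tested. With 4329700 mutant and 4035141 control UMIs, genes near 20 CPM rest on few UMIs.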

Other observations

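Dkk2, a secreted Wnt modulator, had 37.5 CPM in mutant against 70.2 CPM in control cells of the 689 mural cells outside clusters 2 and 5, while all other cells of the mutant library had 12.5 CPM, against 0.909 CPM in those of the control. Lrrc32, which holds latent TGF-beta at the cell surface, had 27.6 CPM in mutant against 50.3 CPM in control cells, and Sh2d3c, a signalling adaptor, 29.9 and 71.8 CPM. These genes were chosen after their values were seen.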
